A study of Mus musculus with 22 samples.

Results

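The 6 mouse Dlx genes were examined in peak lists from embryonic stem cells. They are Dlx1 to Dlx6, taken by name, and they are 6 of the 21827 protein-coding genes in the basic set of GENCODE M21 on GRCm38 (mm10). Their promoters, defined as the stretch within 1 kb on either side of any protein-coding transcription start site, and the 3 gene pairs in which they lie were described in all 7 lists. The lists come from chromatin immunoprecipitation and sequencing (ChIP-seq), which recovers the DNA bound by a protein or carrying a histone mark. Of 22 samples in 12 groups, 14 libraries, 2 per group, stand behind the 7 lists, and the other 8 libraries were not analysed here. Wild-type cells were of the line E14, and MTF2, EZH2, H3K27me3 and H3K4me3 were listed there. The mutant cells are called Mtf2 GT/GT in the labels and carry a gene-trapping cassette that disrupts the coding sequence. EZH2, H3K27me3 and H3K4me3 were listed in them. Both were grown in serum with LIF, and neither received a treatment. Which line the gene-trap cells were derived from is not stated beyond a description of some of these samples that says E14, so genotype and line cannot be told apart. Whether the line is 1 clone is not given in the sources used here. MTF2 itself was not listed in the mutant cells, so its loss was not checked. Each group is represented by 1 list, so no comparison below has a replicate check or a test.

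Dlx genes are the vertebrate relatives of Distal-less, the fly gene for the outer parts of appendages, and encode homeodomain transcription factors. They lie in convergent pairs whose members point towards each other and share enhancers. Dlx1, Dlx2, Dlx5 and Dlx6 act in the precursors of forebrain GABAergic interneurons and in the pharyngeal arches, where Dlx5 and Dlx6 set lower jaw identity. Dlx3 acts in hair, tooth, bone and placenta, and Dlx4, the least studied member, is known from placenta and blood cells in human. Embryonic stem cells keep such genes silent but inducible. Polycomb repressive complex 2 (PRC2) places H3K27me3 on their chromatin through its catalytic subunit EZH2, and the Polycomb-like protein MTF2 binds both PRC2 and unmethylated CpG-rich DNA. H3K4me3, laid down by other enzymes, often sits on the same promoters, a state called bivalent. The study asks, by its title, how MTF2 brings PRC2 to DNA, and GCG is the core of the sequences that Polycomb-like proteins are known to bind.

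Example sequences from a promoter and from peaks described below are shown first. The promoter of Dlx2 lay under peaks of all 4 wild-type lists and, of the 3 gene-trap lists, under H3K4me3 alone in this stretch. The next 3 sequences are EZH2 peaks that were still listed in gene-trap cells, from an intron of Dlx1, from the stretch between Dlx1 and Dlx2 and from an intron of Dlx5. The last, from an intron of Dlx4, is the centre of an MTF2 peak without EZH2 in gene-trap cells. Capitals mark GCG and its reverse complement CGC.
Dlx2 promoter, chr2:71546755-71547004, minus strand: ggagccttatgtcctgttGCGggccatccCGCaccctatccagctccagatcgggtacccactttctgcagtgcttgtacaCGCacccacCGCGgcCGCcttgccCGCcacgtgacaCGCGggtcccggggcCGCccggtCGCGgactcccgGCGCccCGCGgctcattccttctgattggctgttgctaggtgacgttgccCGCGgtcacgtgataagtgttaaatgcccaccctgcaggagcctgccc
Dlx1 intron, chr2:71531962-71532229, plus strand: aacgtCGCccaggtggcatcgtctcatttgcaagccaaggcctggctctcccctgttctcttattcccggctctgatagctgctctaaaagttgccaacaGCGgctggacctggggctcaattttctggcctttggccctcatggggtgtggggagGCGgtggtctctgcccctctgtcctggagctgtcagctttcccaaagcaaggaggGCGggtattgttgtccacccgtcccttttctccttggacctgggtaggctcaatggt
Dlx1/Dlx2 between the genes, chr2:71541587-71541842, plus strand: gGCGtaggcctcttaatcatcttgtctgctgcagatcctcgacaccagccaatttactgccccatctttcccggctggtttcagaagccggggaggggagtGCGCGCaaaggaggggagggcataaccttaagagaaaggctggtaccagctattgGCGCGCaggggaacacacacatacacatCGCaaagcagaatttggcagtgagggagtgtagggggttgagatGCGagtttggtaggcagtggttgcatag
Dlx5 intron, chr6:6880914-6881170, plus strand: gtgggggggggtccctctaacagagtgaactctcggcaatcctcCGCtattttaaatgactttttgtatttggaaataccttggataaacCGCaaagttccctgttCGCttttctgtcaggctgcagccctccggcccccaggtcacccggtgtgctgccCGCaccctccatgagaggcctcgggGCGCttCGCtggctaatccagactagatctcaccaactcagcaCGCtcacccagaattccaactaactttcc
Dlx4 intron, chr11:95143072-95143371, plus strand: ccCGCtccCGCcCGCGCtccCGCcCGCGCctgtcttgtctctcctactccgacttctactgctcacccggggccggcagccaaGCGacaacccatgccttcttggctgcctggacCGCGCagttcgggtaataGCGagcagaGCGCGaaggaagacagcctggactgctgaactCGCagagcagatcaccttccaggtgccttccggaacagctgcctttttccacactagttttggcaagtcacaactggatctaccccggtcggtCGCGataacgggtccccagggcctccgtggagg
The Dlx2 sequence is from the RefSeq promoter table (GRCm38.p6), cut to the 250 bases before the start. Of the 6 members, Dlx1 and Dlx2 matched that table, and Dlx3, Dlx4, Dlx5 and Dlx6 have no entry in it. The entry of Dlx1 lies in an annotated exon and is not shown. The other sequences were read from GRCm38 at the peak, and peaks over 300 bp are shown by their central 300 bases. With GCG counted on both strands and overlapping matches counted separately, the Dlx2 promoter held 18. At least 1 was present in 76.6% of the 32851 promoters of the table over the same 250 bases, with a median of 3. The Dlx1 intron held 4, the Dlx1/Dlx2 intergenic peak 11, the Dlx5 intron 8 and the Dlx4 intron 20. In the central 300 bases of all 6357 MTF2 peaks, 98.9% held at least 1 and the median was 17, and in the central 256 bases the median was 14. The 3 sequences that still had EZH2 in gene-trap cells held fewer GCG than the median MTF2 peak centre, and the Dlx4 sequence held more. These 3 are examples out of 16 such EZH2 peaks. They were picked as the widest peak wholly in an intron of Dlx1, between Dlx1 and Dlx2 and wholly in an intron of Dlx5. Peaks touching exons were passed over. All gene-trap EZH2 peaks together had 4.91 GCG per 100 bp at Dlx1/Dlx2 and 2.55 at Dlx5/Dlx6, so the examples do not stand for the rest. Over its central 1 kb the Dlx4 peak had 3.3 GCG per 100 bp, below the median of 4.4. These matches describe letters and are not shown to be bound.

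The lists hold positions without heights, so the width of a peak is the one graded value, and depth is unknown. Across the whole lists, the length covered in gene-trap cells was 3.78% of that in wild-type cells for EZH2, 15.9% for H3K27me3 and 81.8% for H3K4me3. As a check of cell type, H3K4me3 lay at the promoters of 8 of 8 embryonic stem cell markers in both genotypes. It lay at 3 of 6 feeder fibroblast markers in wild-type cells and at 4 of 6 in gene-trap cells. Over all promoters the shares were 65.5% and 66.1%, so these counts do not show that feeder cells were present. The part of feeder cells in the results was not tested.

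In wild-type cells all 6 Dlx promoters carried both PRC2 proteins, MTF2 and EZH2, and both histone marks. Over all protein-coding genes, the share with a promoter peak was 15.9% for MTF2, 16.6% for EZH2, 19.3% for H3K27me3 and 65.5% for H3K4me3. In gene-trap cells, EZH2 was listed at 3 of the 6 promoters, those of Dlx1, Dlx2 and Dlx5, against 0.733% of all promoters. This count was 1 (Dlx2) with an overlap of at least 200 bp or with peaks of at least 500 bp, and 0 when the peak had to hold the start. H3K27me3 was listed at 4, those of Dlx1, Dlx2, Dlx5 and Dlx6, against 2.68%, and at 1 (Dlx1) when the peak had to hold the start. H3K4me3 was listed at all 6, against 66.1%. Dlx3 and Dlx4 had neither EZH2 nor H3K27me3 at the promoter in gene-trap cells. With the 1 kb window the split thus ran between pairs for H3K27me3 and also through the pair Dlx5/Dlx6 for EZH2. This depended on the window. With 2.5 kb on either side, EZH2 was also listed at Dlx6 and H3K27me3 also at Dlx4. The split then ran between pairs for EZH2 and through the pair Dlx3/Dlx4 for H3K27me3. Members of a pair share peaks, so the 6 promoters are not 6 independent observations.

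**Figure D1:**
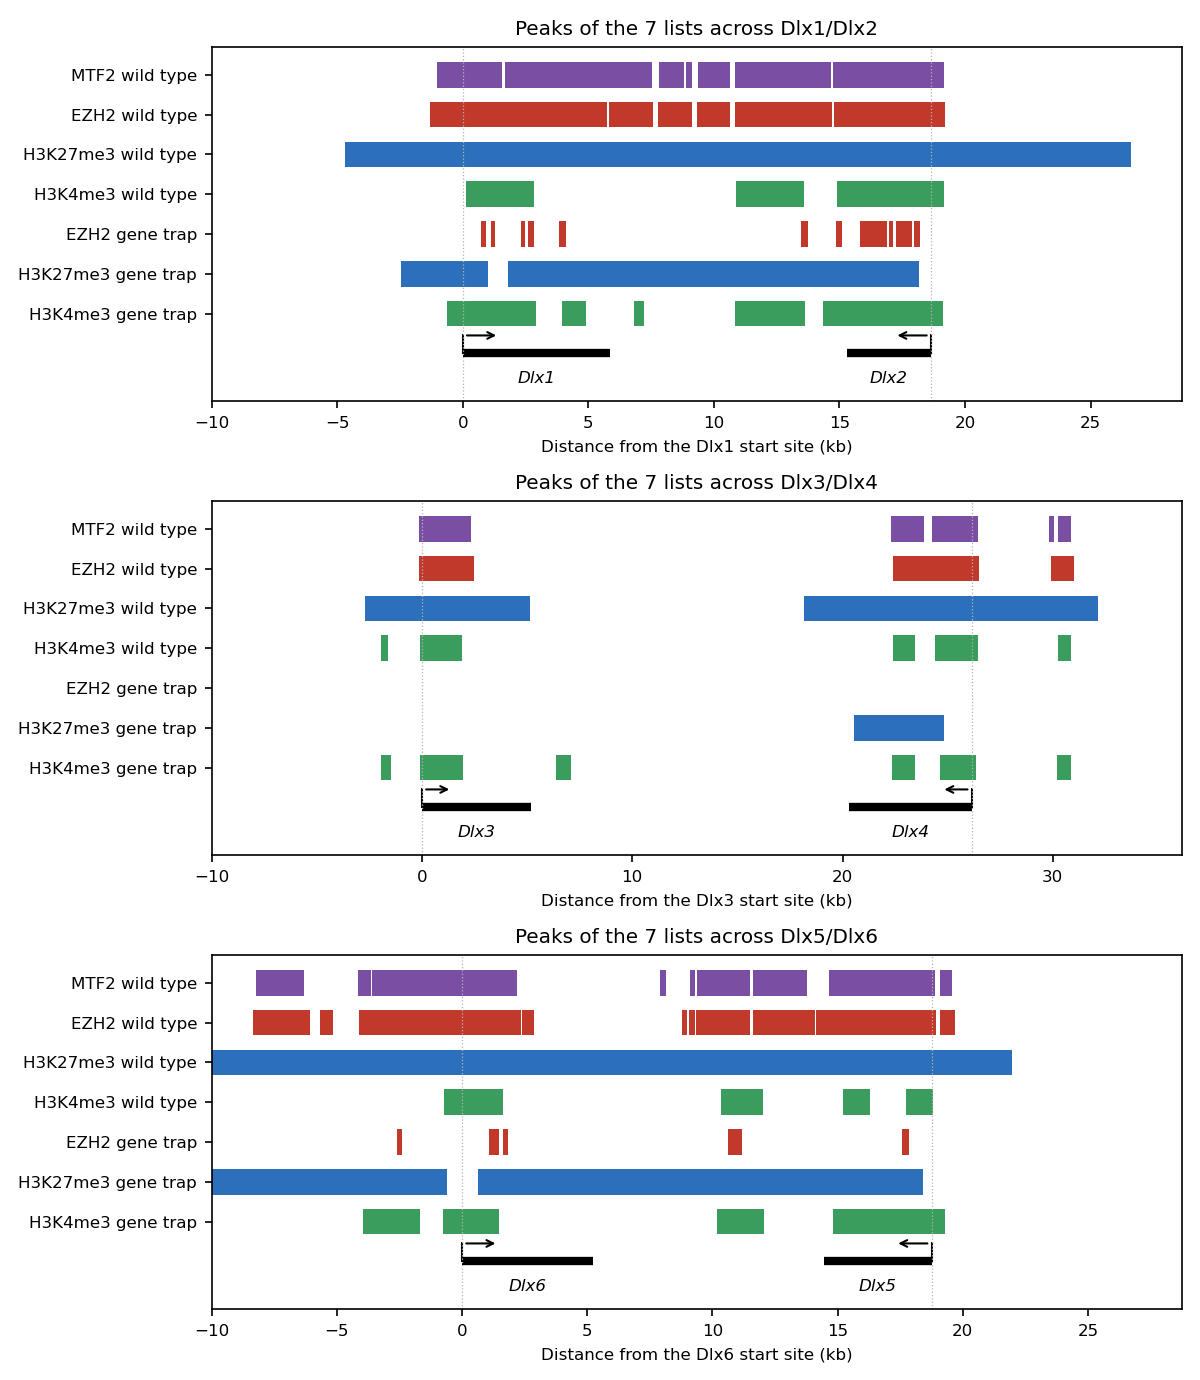
Peaks of the 7 lists (rows) across each gene pair and 10 kb on either side, against distance in kb from the start site of the left gene; bars are peaks, black lines are genes, arrows show the direction of transcription and dotted lines mark start sites. Wild-type H3K27me3 is 1 block over Dlx1/Dlx2 and over Dlx5/Dlx6 and 2 blocks at Dlx3/Dlx4, and gene-trap EZH2 appears as 11, 0 and 5 narrow peaks.

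Dlx1, a factor of migrating interneurons, starts at position 71528113 of chromosome 2, and its antisense transcript Dlx1as runs over the whole gene, so peaks there cannot be assigned to one or the other. In wild-type cells its widest promoter peaks measured 2597 bp for MTF2, 7041 bp for EZH2 and 31293 bp for H3K27me3. The H3K4me3 peak of 2741 bp began downstream of the annotated start. In gene-trap cells the EZH2 peak at the promoter measured 169 bp and the H3K27me3 peak 3454 bp, and the latter still covered the start. H3K4me3 there was 3528 bp wide and reached over the start. A gap of 801 bp without H3K27me3, chr2:71529111-71529911, followed downstream in gene-trap cells. It held the start used by the RefSeq promoter table, 1332 bp downstream of the GENCODE start, as well as an EZH2 peak, chr2:71529226-71529379. Read from that second start, Dlx1 thus resembled Dlx2, Dlx5 and Dlx6 in having its start outside H3K27me3.

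Dlx2, the partner of Dlx1 in the same precursors, starts 18641 bp away on the opposite strand. Its wild-type MTF2 peak measured 4387 bp, its EZH2 peak 4450 bp and its H3K4me3 peak 4259 bp, and it lay in the same H3K27me3 domain of 31293 bp as Dlx1. In gene-trap cells 2 EZH2 peaks touched the promoter, the wider of 620 bp, and covered 520 bp of the window. They were part of 4 EZH2 peaks that together covered 64.1% of the Dlx2 gene body. No other Dlx gene body had as much: the share was 16.4% at Dlx1, 12% at Dlx6, 6% at Dlx5 and 0% at Dlx3 and Dlx4. The H3K27me3 domain there, 16387 bp wide, ended 456 bp downstream of the start, so the start and the promoter sequence shown above lay outside it.

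Dlx3, the factor of hair, tooth and bone, starts at position 95120119 of chromosome 11. It carried the narrowest H3K27me3 domain of the 6, 7875 bp, with an MTF2 peak of 2484 bp, an EZH2 peak of 2588 bp and an H3K4me3 peak of 2026 bp. In gene-trap cells no EZH2 or H3K27me3 peak lay in the gene or within 10 kb outside it, and the H3K4me3 peak of 2044 bp was nearly as wide as before.

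Dlx4 lies 26144 bp from Dlx3, start to start, the widest spacing of the 3 pairs, and its start is overlapped by the opposite-strand transcript Dlx4os. Its wild-type peaks measured 2207 bp for MTF2, 2362 bp for EZH2, 13987 bp for H3K27me3 and 2060 bp for H3K4me3. In gene-trap cells no EZH2 peak was listed. An H3K27me3 peak of 4258 bp remained inside the gene body, chr11:95140681-95144938. Its nearest edge was 1325 bp downstream of the start, beyond the promoter window, so Dlx4 counts as having no H3K27me3 at the promoter although 73.2% of its gene body was covered. H3K4me3 at the promoter measured 1691 bp.

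Dlx5, a factor of the lower jaw, inner ear and bone, starts at position 6882085 of chromosome 6, with a second annotated start at 6882068. Its wild-type MTF2 peak measured 4242 bp and its EZH2 peak 4769 bp, within an H3K27me3 domain of 35657 bp, the widest at a Dlx gene. In gene-trap cells the EZH2 peak was the intron sequence shown above, 257 bp wide, of which 86 bp reached into the promoter window. The H3K27me3 domain of 17773 bp ended 329 bp downstream of the start. H3K4me3 at the start was 1074 bp wide in wild-type cells, and 91.9% of genes with such a peak had one at least as wide. In gene-trap cells it was 4479 bp wide.

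Dlx6 shares the wild-type H3K27me3 domain with Dlx5, and the long noncoding transcript Dlx6os1, known to regulate the pair in embryonic forebrain, runs across it on the other strand. Its promoter had the widest MTF2 peak of the 6 promoters, 5814 bp, and an EZH2 peak of 6453 bp. In gene-trap cells no EZH2 peak touched the promoter window, but peaks of 423 bp and 205 bp lay just beyond it in the gene and a peak of 209 bp lay upstream of it. The start was in a gap of 1235 bp, chr6:6862749-6863983, between H3K27me3 domains of 9543 bp and 17773 bp. H3K4me3 at the promoter measured 2367 bp in wild-type and 2268 bp in gene-trap cells.

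At the level of the start site, the picture in gene-trap cells was therefore more uniform than at the level of the promoter window. EZH2 covered none of the 6 annotated starts, H3K27me3 covered that of Dlx1, and H3K4me3 covered all 6. Of all genes with a start inside a wild-type peak, 1.42% had this also in gene-trap cells for EZH2. The share was 8.58% for H3K27me3 and 98.5% for H3K4me3. The counts at the members are near these shares and are no result about these genes. Among the 4 members that kept promoter H3K27me3, 3 had their first start outside every H3K27me3 peak. Over all genes that kept the mark and had the start inside it in wild-type cells, this share was 50.9%, so 3 of 4 is not far from it.

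**Figure D2:**
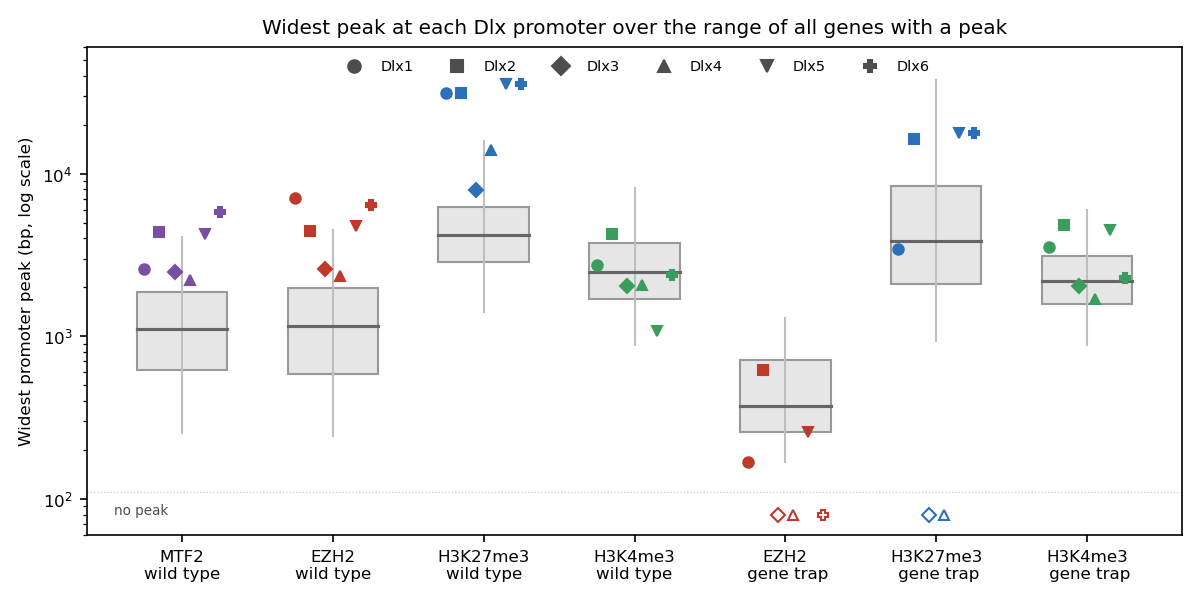
Widest peak at each Dlx promoter in each list, in bp on a log scale; symbols are genes, grey boxes span the quartiles of all genes with a peak in that list, the line in each box is the median, whiskers run from the 5th to the 95th percentile, and open symbols mark no peak. In wild-type cells all 6 members lie above the upper quartile for EZH2 and H3K27me3, and in gene-trap cells Dlx3 and Dlx4 have neither.

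The members stood among the wide peaks of the wild-type lists, and how often a peak had a counterpart in gene-trap cells went with its width. A mark was called kept when a gene-trap peak of the same mark also touched the promoter. Over all genes with a wild-type promoter peak, EZH2 was kept at 4.24%, H3K27me3 at 13.7% and H3K4me3 at 98.8%. Genes were ranked by the width of the wild-type peak in 5 classes of equal size. From the narrowest to the widest class the share that kept EZH2 ran from 0% to 20.4%, and the share that kept H3K27me3 from 0.831% to 48.4%. All 6 members fell in the widest class for EZH2, which began at 2245 bp, and for H3K27me3, which began at 6880 bp, and 3 and 4 of them kept the respective peak. The widest classes are broad, so they were divided further at 4 kb for EZH2 and at 20 kb for H3K27me3, limits chosen after the members' widths were seen. Of the 4 members with EZH2 peaks of at least 4 kb, 3 kept EZH2, against 48.8% of genes with peaks that wide. Neither Dlx3 nor Dlx4, with narrower peaks, kept it, against 6.2% of genes between 2245 bp and 4 kb. The 4 members in H3K27me3 domains of at least 20 kb, which are 2 domains, kept H3K27me3, against 94.2% of such genes. Dlx3 and Dlx4 did not, against 39.4% of genes between 6880 bp and 20 kb. Read against genes of like width, keeping H3K27me3 at Dlx1, Dlx2, Dlx5 and Dlx6 is near the background and is no result about these genes.

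In wild-type cells a single H3K27me3 domain touched both promoters of Dlx1/Dlx2 and of Dlx5/Dlx6, whereas Dlx3 and Dlx4 had a domain each. A shared domain was found for 43.5% of the 115 neighbouring convergent pairs with starts within 50 kb and both promoters in H3K27me3, so 2 of 3 is not far from it. In gene-trap cells a single domain reached into both gene bodies of Dlx1/Dlx2, 16387 bp wide, and of Dlx5/Dlx6, 17773 bp wide. The latter also touched both promoter windows, and the former touched that of Dlx2 but not that of Dlx1.

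Across Dlx1/Dlx2 with 10 kb on either side, chr2:71518113-71556754, EZH2 covered 19756 bp in 6 peaks in wild-type cells and 3586 bp in 11 peaks in gene-trap cells, or 18.2%. H3K27me3 covered 31293 bp and 19841 bp, or 63.4%. H3K4me3 covered 9703 bp and 12481 bp, or 129%. The EZH2 peaks were thus narrower and more numerous, while the H3K27me3 domain was cut in 2 and trimmed at its ends.

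Across Dlx3/Dlx4, chr11:95110119-95156263, EZH2 covered 7782 bp in 4 peaks in wild-type cells and 0 bp in gene-trap cells. H3K27me3 covered 21862 bp and 4258 bp, or 19.5%, which is the peak in the Dlx4 gene body. H3K4me3 covered 6077 bp and 6641 bp, or 109%. Without the flanks the H3K27me3 share was 32.4%, beside 15.9% for the whole list.

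Across Dlx5/Dlx6, chr6:6853334-6892085, EZH2 covered 20092 bp in 10 peaks in wild-type cells and 1645 bp in 5 peaks in gene-trap cells, or 8.19%. H3K27me3 covered 31959 bp and 27188 bp, or 85.1%, the highest share of the 3 pairs. H3K4me3 covered 6160 bp and 10874 bp, or 177%. Dlx5/Dlx6 therefore held less EZH2 than Dlx1/Dlx2 in gene-trap cells but more H3K27me3, so the order of the pairs was not the same for the enzyme and its mark. The difference in H3K27me3 lay mostly in the flanks. Without them its share was 93.3% at Dlx1/Dlx2 and 94.8% at Dlx5/Dlx6.

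**Figure D3:**
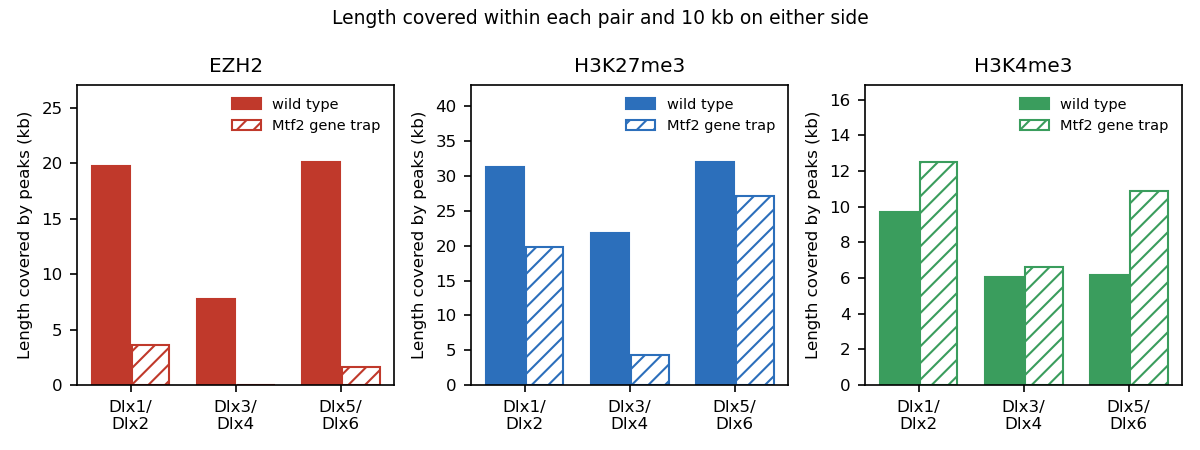
Length covered by peaks, in kb, across each pair and 10 kb on either side for EZH2, H3K27me3 and H3K4me3; filled bars are wild-type and hatched bars gene-trap cells, with 1 list per bar and no error. EZH2 is shorter in gene-trap cells in all 3 pairs (0 bp at Dlx3/Dlx4), H3K27me3 is shortest at Dlx3/Dlx4, and H3K4me3 is longer in all 3.

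Coverage by H3K27me3 between the genes and outside them differed from pair to pair. The 9426 bp between Dlx1 and Dlx2 and the 9236 bp between Dlx5 and Dlx6 were 100% covered in both genotypes. Between Dlx3 and Dlx4, 2162 bp were covered in wild-type and 0 bp in gene-trap cells. In the 10 kb outside Dlx2, coverage was 7961 bp in wild-type and 0 bp in gene-trap cells, and outside Dlx5 it was 3207 bp and 0 bp. Outside Dlx1 it was 4690 bp and 2456 bp. Outside Dlx6, where Dlx6os1 runs, it was 10000 bp and 9415 bp. Outside Dlx3 and Dlx4 it was 2723 bp and 6008 bp in wild-type cells and 0 bp in gene-trap cells at both.

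The stretches between the genes of Dlx1/Dlx2 and Dlx5/Dlx6 are known to hold enhancers active in the forebrain. MTF2 covered 90.3% of the stretch between Dlx1 and Dlx2 in wild-type cells, 51.3% of that between Dlx5 and Dlx6, and 0% of the 15150 bp between Dlx3 and Dlx4. EZH2 there covered 92.9%, 57.5% and 0% in wild-type cells and 5.04%, 5.97% and 0% in gene-trap cells. H3K4me3, usually a promoter mark, covered 32.8%, 18% and 0% in wild-type cells and 43.9%, 20% and 4.96% in gene-trap cells. Whether the intergenic peaks coincide with the known enhancers was not examined.

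H3K4me3 was longer near the starts of 3 members in gene-trap cells. Within 5 kb of the first start, it covered 2130 bp in wild-type and 4479 bp in gene-trap cells at Dlx5, a ratio of 2.1. At Dlx6 it covered 2367 bp and 4544 bp, a ratio of 1.92, and at Dlx1 2741 bp and 4494 bp, a ratio of 1.64. The ratio was 1.13 at Dlx2, 1.06 at Dlx3 and 0.912 at Dlx4. Of the 3897 genes with both H3K4me3 and H3K27me3 at the wild-type promoter, 5.49% had a ratio of at least 1.5, and the median ratio was 1. The 3 members with the longer H3K4me3 are among the 4 that kept promoter H3K27me3, and Dlx5 and Dlx6 share a domain. How often genes that kept H3K27me3, or genes with domains of like width, reached a ratio of 1.5 was not computed. The overlap thus stands without a background, and a link between the marks was not tested.

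**Figure D4:**
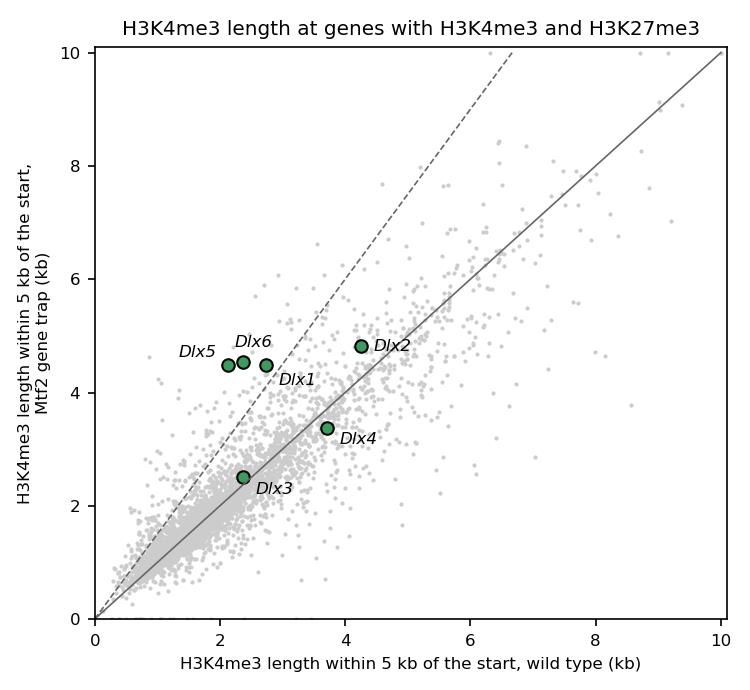
Length of H3K4me3 within 5 kb of the first start site in wild-type (horizontal) and gene-trap (vertical) cells, in kb, for genes with both H3K4me3 and H3K27me3 at the wild-type promoter; grey points are genes, green points the 6 members, the solid line marks equal length and the dashed line a ratio of 1.5. Dlx1, Dlx5 and Dlx6 lie above the dashed line, and Dlx2, Dlx3 and Dlx4 near the solid line.

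This added length came from wider peaks and from peaks with no wild-type counterpart. At Dlx5, wild-type peaks of 1056 bp and 1074 bp were replaced by 1 peak of 4479 bp over the gene. Dlx6 had a new peak of 2276 bp, chr6:6859383-6861658, upstream of its promoter, and Dlx1 had a new peak of 966 bp in the gene. New peaks of 403 bp beyond the end of Dlx1 and of 752 bp downstream of Dlx3 lay more than 5 kb from the start and did not add to the lengths above. Together 4 of the 15 gene-trap H3K4me3 peaks in the pairs touched no wild-type H3K4me3 peak, against 16.6% of all gene-trap H3K4me3 peaks. None of the 12 wild-type H3K4me3 peaks in the pairs was without a gene-trap counterpart. The like share over all wild-type H3K4me3 peaks was not computed. At promoters, 98.8% of all genes with the mark kept it, so this is no result about the pairs.

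The 16 EZH2 peaks that remained in the pairs in gene-trap cells were between 154 and 1075 bp wide, with a median of 237.5 bp. All 16 lay on wild-type MTF2 peaks, against 93.7% of all 840 gene-trap EZH2 peaks. With gene-trap H3K27me3 15 overlapped, against 94%, and with gene-trap H3K4me3 15, against 80.7%. These shares are near the background. Seen from MTF2, 7 of the 21 MTF2 peaks in the pairs touched gene-trap EZH2, against 358 of all 6357 MTF2 peaks. Of the 21, 17 touched gene-trap H3K27me3 and 14 touched gene-trap H3K4me3. The shares of all MTF2 peaks that touched H3K27me3 or H3K4me3 were not computed, so these counts stand without a background.

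CpG and GCG were counted to describe the DNA under these peaks. Within 1 kb of the first start, GCG density ran from 2.7 per 100 bp at Dlx1 to 4.15 at Dlx6, with 3.65 at Dlx2, 3 at Dlx3, 3.15 at Dlx4 and 3.25 at Dlx5. The median was 1.95 over all promoters and 3.7 over promoters with MTF2. Promoter CpG density ran from 3.75 at Dlx1 to 5.9 at Dlx2, beside a median of 3.15 over all promoters and 4.95 over those with MTF2. Within 1 kb every member lay between the quartiles of promoters with MTF2, 3.65 and 6.5 for CpG and 2.5 and 5.1 for GCG. Dlx3 and Dlx4 lay inside the range of the other 4. Within 500 bp of the start, Dlx1 had 3.1 CpG and 2.4 GCG, below the lower quartiles of 4.6 and 3.3.

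In Dlx1/Dlx2, the 4 MTF2 peaks with gene-trap EZH2 had 2.4 to 4.5 GCG per 100 bp in their central 1 kb, and the 3 without had 0.7 to 1.4. In Dlx5/Dlx6, the 3 peaks with gene-trap EZH2 had 2.1 to 2.4, inside the range of 0.3 to 2.7 of the 6 without. The 5 MTF2 peaks of Dlx3/Dlx4, none of which had gene-trap EZH2, had 2 to 5.2. GCG density in the central 1 kb thus separated the peaks within Dlx1/Dlx2, but not within Dlx5/Dlx6 and not between pairs. Over whole peaks it did not separate them within Dlx1/Dlx2 either, since a peak with gene-trap EZH2 had 1.82 and a peak without had 1.91. Over all MTF2 peaks the median was 3.1 in the 358 with gene-trap EZH2 and 4.4 in the 5999 without, the opposite order to that within Dlx1/Dlx2. The peaks of a pair also differ in width and overlap in their central windows, and the part of width was not tested.

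**Figure D5:**
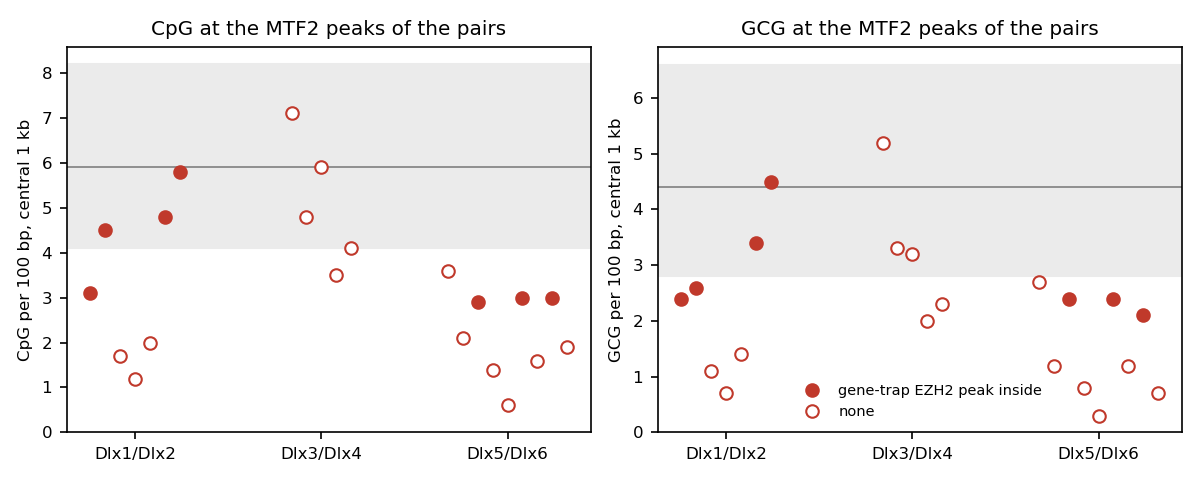
Density per 100 bp of CpG (left) and GCG (right) over the central 1 kb of the MTF2 peaks in the 3 pairs, ordered by position within a pair; filled points have a gene-trap EZH2 peak inside and open points have none, the grey band spans the quartiles of all 6357 MTF2 peaks and the line is their median. Filled points lie above open ones in Dlx1/Dlx2, mix with them in Dlx5/Dlx6 and are missing in Dlx3/Dlx4.

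In the pairs themselves, the bases still under EZH2 in gene-trap cells at Dlx1/Dlx2 had 4.91 GCG per 100 bp, and the rest of the wild-type EZH2 bases had 2.18. At Dlx5/Dlx6 the values were 2.55 and 2.09. Over the whole lists the order was the opposite, with 3.92 in gene-trap and 4.48 in wild-type EZH2 peaks. At Dlx3/Dlx4, where no EZH2 remained, the wild-type EZH2 bases had 3.25, more than either remainder.

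The genes next to the pairs were little marked at their promoters, the one part of them that was examined. Of the nearest 2 protein-coding genes on each side, Hat1, Itga6, Pdk1, Itga3, Pdk2, Kat7, Sem1, Slc25a13 and Sdhaf3 had H3K4me3 alone, and Tac4, a tachykinin gene, had no peak in any list. Metap1d, beside Dlx1, had an H3K27me3 peak of 573 bp at its promoter in wild-type cells. Away from its promoter, the wild-type H3K27me3 domain of 31293 bp over Dlx1 and Dlx2 also reached exons of Metap1d. Tac1, the gene for substance P, had all 4 wild-type peaks, with MTF2 of 902 bp, EZH2 of 728 bp and H3K27me3 of 3541 bp. Neither gene had EZH2 or H3K27me3 at its promoter in gene-trap cells, and H3K4me3 at Tac1 measured 556 bp in wild-type and 1960 bp in gene-trap cells.

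Genes that act with the Dlx factors were counted in 3 lists. All 19 forebrain interneuron genes had MTF2, EZH2 and H3K27me3 at the promoter in wild-type cells, and 17 had H3K4me3. EZH2 was kept at 8, H3K27me3 at 16 and H3K4me3 at 17 of them. Sp9, a zinc finger factor of striatal precursors, had EZH2 peaks of 12039 bp in wild-type and 1125 bp in gene-trap cells, and Gsx1, a homeobox factor upstream of Dlx genes, of 7371 bp and 307 bp. Nrp2, a guidance receptor of migrating interneurons, had 5818 bp and none.

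In wild-type cells 21 of 22 pharyngeal arch and limb genes had MTF2, 20 had EZH2, 21 had H3K27me3 and 22 had H3K4me3, and 5, 15 and 22 kept the last 3. Pitx1, a hindlimb and jaw factor, had EZH2 peaks of 9298 bp and 1323 bp, and Hand2, which acts downstream of Dlx5 and Dlx6 in the lower jaw, of 6481 bp and 344 bp. Msx1, a tooth and palate factor, had 9063 bp and none, and Gsc had 6325 bp and none. Of 16 bone, tooth, skin and placenta genes, 4 had MTF2, 4 EZH2, 7 H3K27me3 and 7 H3K4me3, and 1, 1 and 7 kept the last 3. Runx2, the master factor of bone formation, had EZH2 peaks of 5353 bp and 297 bp. Esx1, a placental homeobox gene, had 3557 bp and none, and Ovol1, an epidermal factor, had 2436 bp and none. Over all genes, the share with a wild-type peak was 16.6% for EZH2 and 19.3% for H3K27me3, and 4.24% and 13.7% of those kept it. Keeping went with width, and the genes named from the first 2 lists and Runx2 had EZH2 peaks over 4 kb, a width at which 48.8% of all genes kept EZH2. The counts of the lists were not compared at matched width.

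Finally, genes with a similar pattern were sought by the Euclidean distance over the 7 lists of log2 of the bp covered within 5 kb of the first start plus 100. Apart from the members themselves, the nearest to Dlx1 were Nrn1 at a distance of 0.255 and Sox14 at 0.588, where the median over all other genes was 12.8. Of the members, Dlx6 lay at 0.509 from Dlx1, between those 2 genes, and Dlx2 at 1.53. Nearest to Dlx2 were Fgf9 at 0.966 and Emx1 at 1.03. Nearest to Dlx5 were Gdf6 at 0.531 and Tbx4 at 0.552, and to Dlx6, after Dlx1, Hoxb2 at 0.569 and Sox14 at 0.624. Dlx3 was nearest to Lrrtm1 at 0.171 and Plxna4 at 0.192, and Dlx4 to Zfp703 at 0.457 and Ihh at 0.471. The partners Dlx3 and Dlx4 were 5.46 apart, and Dlx5 and Dlx6 1.75. Most of the distance between Dlx3 and Dlx4 came from gene-trap H3K27me3, with 0 bp at Dlx3 and 3676 bp at Dlx4. Its size depends on the 100 bp added.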

How the data were processed

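The submitters' processing notes name CASAVA, BWA 0.7.10-r789, MACS2 2.7 and the build mm10 (GRCm38). Their roles, the peak threshold, the control and how libraries were combined are not given in the sources used here, and the words MAnorm and unbiased stand in list names alone. The deposited lists give the chromosome, start and end of each region in bp, with no score, signal or count, so library depth is unknown and a missing peak may be a matter of depth or threshold. The 2 libraries of each group point to a common list, so the spread between replicates could not be measured.

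Starts were converted to positions counted from 1. No region ended past its chromosome in GRCm38, with 22 of 76045 regions on contigs that were not compared. Promoters, overlaps of at least 1 bp, covered lengths and widths were computed with Python 3.11.15 and numpy 2.4.6 from GENCODE M21, and sequences were read with pysam 0.24.0. The interval steps were tested on simulated intervals. Members and gene lists were chosen with earlier results of these data known. Genes named besides the members were the nearest 2 on each side, the 2 of each list with the widest wild-type EZH2 peak among those that kept and those that lost EZH2, and the 2 most alike in pattern, passing over the members, predicted genes and genes within 100 kb. Of the genes so chosen, 1 is not reported here.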

Additional observations from a re-analysis of the deposited data

How the results depend on the processing

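Of 94 alternatives to the values above, 68 stayed within the set limits and 26 did not. For promoter counts the limits were loose, so that 4 in place of 3 was within them. Covered shares and densities were held to a 95% binomial interval, which treats single bases as independent. For gene-trap cells, the counts with a peak and the counts kept largely repeat each other. The tally is therefore not one of independent checks. The promoter counts in gene-trap cells depended on how a promoter was defined. For EZH2, the count of promoters with a peak and the count that kept it were both 0 when the peak had to hold the start site, 1 (Dlx2) with peaks of at least 500 bp and 1 (Dlx2) with an overlap of at least 200 bp, in place of 3. For H3K27me3 both were 1 (Dlx1) when the peak had to hold the start, in place of 4. The shares of all genes that kept EZH2 were then 1.42%, 2.06% and 3.51%, and 8.58% kept H3K27me3. With a window of 2.5 kb, 4 kept EZH2 (Dlx6 was added) and 5 kept H3K27me3 (Dlx4 was added). The split then ran between pairs for EZH2 and through Dlx3/Dlx4 for H3K27me3, the reverse of that with 1 kb. The start of the RefSeq gene record, an alternative chosen after seeing the data, changed no count. For Dlx1 it is the GENCODE start, and the counts were not made from the downstream start of the RefSeq promoter table.

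The covered share of a pair without flanks was 20.1% for EZH2, 93.3% for H3K27me3 and 124% for H3K4me3 at Dlx1/Dlx2, 32.4% for H3K27me3 and 111% for H3K4me3 at Dlx3/Dlx4, and 11.6% for EZH2, 94.8% for H3K27me3 and 135% for H3K4me3 at Dlx5/Dlx6. With peaks of at least 500 bp it was 8.58% for EZH2 and 124% for H3K4me3 at Dlx1/Dlx2, 108% for H3K4me3 at Dlx3/Dlx4 and 2.87% for EZH2 at Dlx5/Dlx6. With 25 kb on either side it was 111% for H3K4me3 at Dlx3/Dlx4 and 76.6% for H3K27me3 at Dlx5/Dlx6. Over the 6 promoters together, density was 4.74 CpG and 3.32 GCG per 100 bp, and 5.66 and 4.21 within 500 bp of the start. Over the central 1 kb of the 21 MTF2 peaks it was 3.27 and 2.19, and over whole peaks 4.01 and 2.73. The lower quartiles of the central 1 kb over all MTF2 peaks were 4.1 and 2.8. Beyond what each alternative changes by construction, the cause was not tested. Leaving out a replicate was not possible, because both libraries of a group share 1 list. No paired analysis was possible because the lists carry no replicate numbers.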
